A study of Mus musculus with 34 samples.

Results

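The genes described here carry out antigen presentation by MHC class I in hematopoietic stem cells (HSCs) that kept or lost Ythdf2, and were B2m, H2-K1, H2-D1, H2-Q7, Tap1, Tap2, Tapbp, Psmb8, Psmb9 and Psmb10. They were picked by name, and all 10 were found among the 13108 gene rows of the count table. A class I molecule is a heavy chain paired with beta-2 microglobulin, with a short peptide in its groove. Proteasomes cut proteins into peptides, the TAP transporter carries these into the endoplasmic reticulum, and tapasin bridges TAP to class I molecules while peptides are exchanged. Interferons are known to switch on these genes together, and to replace the constitutive catalytic subunits of the proteasome by the immunoproteasome subunits Psmb8, Psmb9 and Psmb10.

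RNA-seq libraries were made from 100 HSCs each, sorted as LSK CD48-CD150+ bone marrow cells, with up to 2 libraries (A and B) per mouse. Control mice (Ythdf2 CTL) were Ythdf2 fl/fl, and knockout mice (Ythdf2 CKO) were Ythdf2 fl/fl;Vav-iCre, whose Cre is driven by Vav regulatory sequences and acts across hematopoietic cells. Both genotypes carry the floxed allele, in which loxP sites flank exon 2 and GFP is fused to YTHDF2, a reader of the m6A mark that promotes decay of marked transcripts. Young mice, 8 to 12 wk old in the study's account of this line, numbered 4 CTL and 4 CKO, and mice aged for 1 yr numbered 4 CTL and 5 CKO. Library names in the sample descriptions have one stem for young and another for aged mice, and what the stems mark is not stated, so age and any batch they stand for cannot be told apart.

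Total counts per mouse ranged from 2218618 to 10125624. The B library of aged CTL mouse 99, with 187034 counts, was left out. In young mice Ythdf2 was at 93.3 to 123 CPM (counts scaled to library size) in CTL and at 50.3 to 60.2 CPM in CKO mice, a log2 fold change of -0.95 ± 0.17 (SE, edgeR adjusted p = 0.0406, and up to 0.2105 with 1 mouse left out). Of 17 alternative fits, 10 lost this call. Counts were per gene, so the loss of exon 2 itself was not measured here. Among aged mice, the mouse labelled CKO 121 had 188 CPM of Ythdf2 while the other CKO mice had 72.4 to 87.7, and the mouse labelled CTL 124 had 70.4 CPM while the other CTL mice had 142 to 179. These levels go against both labels, so results for aged mice are given with and without these mice. None of the 12 HSC markers on the list was at 0 throughout a group. Their sums ran from 1341 to 1641 CPM in young CTL, 1765 to 2128 in young CKO, 1483 to 2783 in aged CTL and 1842 to 2401 in aged CKO mice. Of these markers only Ly6a, the gene of SCA-1, did not overlap between young groups. It was at 254 to 339.9 CPM in young CTL and 417 to 906 CPM in young CKO mice. The others overlapped, among them Kit (317 to 426 and 309 to 407 CPM) and Mecom (62.9 to 86.5 and 32.0 to 71.9 CPM). Y-linked transcripts passed 10 CPM in 3 young CTL, 1 young CKO, 1 aged CTL and 1 aged CKO mice, so the sexes were not balanced between young groups.

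The sequences before the transcription start are shown for the heavy chain genes and B2m as a description. Whether these sequences bear on the levels given below was not tested. Each is the 250 bases before a RefSeq start (GRCm38.p6), written 5′ to 3′ on the gene's strand. Capitals mark matches, on either strand, to the interferon consensus sequence (ICS, AGTTTCACTTCT, as read in H2-K1), the interferon-stimulated response element (ISRE, GAAANNGAAA), the NF-kB motif (kB), the X2 core TGACG, and CCAAT, which reads ATTGG on the other strand. The B2m window lies on the plus strand at chr2:122147437-122147686, that of H2-K1 on the minus strand at chr17:34000334-34000583, and those of H2-D1 and H2-Q7 on the plus strand at chr17:35262844-35263093 and chr17:35438905-35439154.
H2-K1: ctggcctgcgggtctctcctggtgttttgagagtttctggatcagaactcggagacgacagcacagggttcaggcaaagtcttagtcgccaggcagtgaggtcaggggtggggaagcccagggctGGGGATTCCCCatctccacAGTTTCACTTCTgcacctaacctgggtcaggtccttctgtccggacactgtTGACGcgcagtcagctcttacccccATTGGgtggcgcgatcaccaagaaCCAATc
H2-D1: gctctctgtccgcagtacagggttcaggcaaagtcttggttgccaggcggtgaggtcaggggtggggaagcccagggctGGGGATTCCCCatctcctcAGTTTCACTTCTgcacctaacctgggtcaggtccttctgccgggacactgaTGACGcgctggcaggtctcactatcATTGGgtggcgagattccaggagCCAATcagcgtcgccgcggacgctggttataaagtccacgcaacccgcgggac
H2-Q7: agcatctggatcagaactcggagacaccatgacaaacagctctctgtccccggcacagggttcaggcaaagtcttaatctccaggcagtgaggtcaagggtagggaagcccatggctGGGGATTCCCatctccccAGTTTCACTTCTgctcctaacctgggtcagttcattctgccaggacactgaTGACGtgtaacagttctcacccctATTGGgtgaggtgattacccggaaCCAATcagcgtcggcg
B2m: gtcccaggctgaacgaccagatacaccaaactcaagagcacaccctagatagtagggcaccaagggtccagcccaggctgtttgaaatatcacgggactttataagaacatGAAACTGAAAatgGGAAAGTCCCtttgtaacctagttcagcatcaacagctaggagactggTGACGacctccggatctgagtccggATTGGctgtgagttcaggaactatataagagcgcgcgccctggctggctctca

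The 3 heavy chain genes shared the order of these elements. The ICS began 19 bases after the kB match in H2-K1 and H2-D1 and 18 bases after it in H2-Q7, and the TGACG core began 51 bases after the ICS in each. The exact ICS letters stood in only 9 of 32851 RefSeq windows of this length (0.0274%), among them the windows of H2-Q4, H2-Q6 and H2-Q10. H2-K1 and H2-D1, like H2-Q6, hold the palindromic kB letters GGGGATTCCCC, found in 10 windows (0.0304%), which overlap their kB matches in the windows shown, and the H2-Q7 window holds the shorter match only. B2m holds no exact ICS but an ISRE match (2.98% of windows) followed by kB (7.25%), TGACG (17.8%) and ATTGG (33.8%). Of the 10 genes, 9 had a window. Tap1 and Psmb9 are divergent neighbours whose windows overlap, and Psmb8 holds a match to the interferon-gamma-activated site letters TTCNNNGAA (7.02% of windows). A match is a string of letters only, and binding was not measured here.

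All the genes but B2m on chromosome 2 and Psmb10 on chromosome 8 lie in the MHC region of chromosome 17. In GENCODE vM21 (GRCm38), Psmb8 spans chr17:34197721-34201454 between Tap1 (chr17:34187553-34197225) and Tap2 (chr17:34203527-34216321), and H2-Q7 spans chr17:35439155-35443773. The start of Tap1 overlaps that of Psmb9 on the opposite strand, and B2m lies within the span of Patl2 on the opposite strand. Zbtb22 lies within the span of Tapbp on the same strand, and the other annotated genes that overlap a member are on the opposite strand and are not rows of the count table. The use of strand in counting is not given in the sources used here, so reads in such overlaps may be shared. Class I heavy chains also resemble each other. Of all 75-base windows in the longest coding transcript, 21.7% of H2-Q7, 6.90% of H2-D1 and 1.55% of H2-K1 occurred word for word in transcripts of other genes, and H2-Q6 alone held 13.6% of those of H2-Q7. How the authors counted reads that fit several genes is not given in the sources used here, so the split between H2-Q7 and H2-Q6 is uncertain. No window of B2m, Tap1, Tap2, Psmb8, Psmb9 or Psmb10 was shared in this way, and 0.99% of those of Tapbp were.

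HSCs of young CTL mice expressed the whole set. To compare genes, CPM was divided by the length of all exons in kilobases, or, as an alternative added after seeing the data, by that of the longest coding transcript, and part of the order depended on this choice. B2m, the light chain, led with 8583 ± 429 CPM per kilobase (SD, n = 4) by either length. The classical heavy chains followed, H2-D1 with 1023 ± 74 and H2-K1 with 969 ± 110 per kilobase of all exons, whose ranges overlapped. Per kilobase of transcript H2-K1 came before H2-D1, with 1759 ± 200 and 1254 ± 90 and no overlap. Psmb8 had 379 ± 53, Psmb10 219 ± 23, Psmb9 97.6 ± 11.3 and H2-Q7, a nonclassical (Qa-2) heavy chain, 81.2 ± 8.1 CPM per kilobase, each with a range apart from the next by exon length. By transcript length Psmb8 had 788 ± 111 and lay apart, while Psmb10 with 285 ± 30, Psmb9 with 264 ± 31 and H2-Q7 with 227 ± 23 had ranges that overlapped from each to the next. Per kilobase of all exons, Tapbp, which encodes tapasin, had 38.9 ± 3.5, and the transporter subunits were lowest, Tap1 with 15.7 ± 5.4 and Tap2 with 14.98 ± 4.5, with overlapping ranges. B2m stayed first and the transporter subunits last in every group by both lengths. H2-Q7 ranked below Psmb9 in young CTL mice and above it in the other groups by both lengths, with overlapping ranges there. Together the 10 genes took 1.47 to 1.61% of counts in young CTL, 1.56 to 1.88% in young CKO, 1.06 to 1.72% in aged CTL and 1.19 to 1.53% in aged CKO mice.

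**Figure D1:**
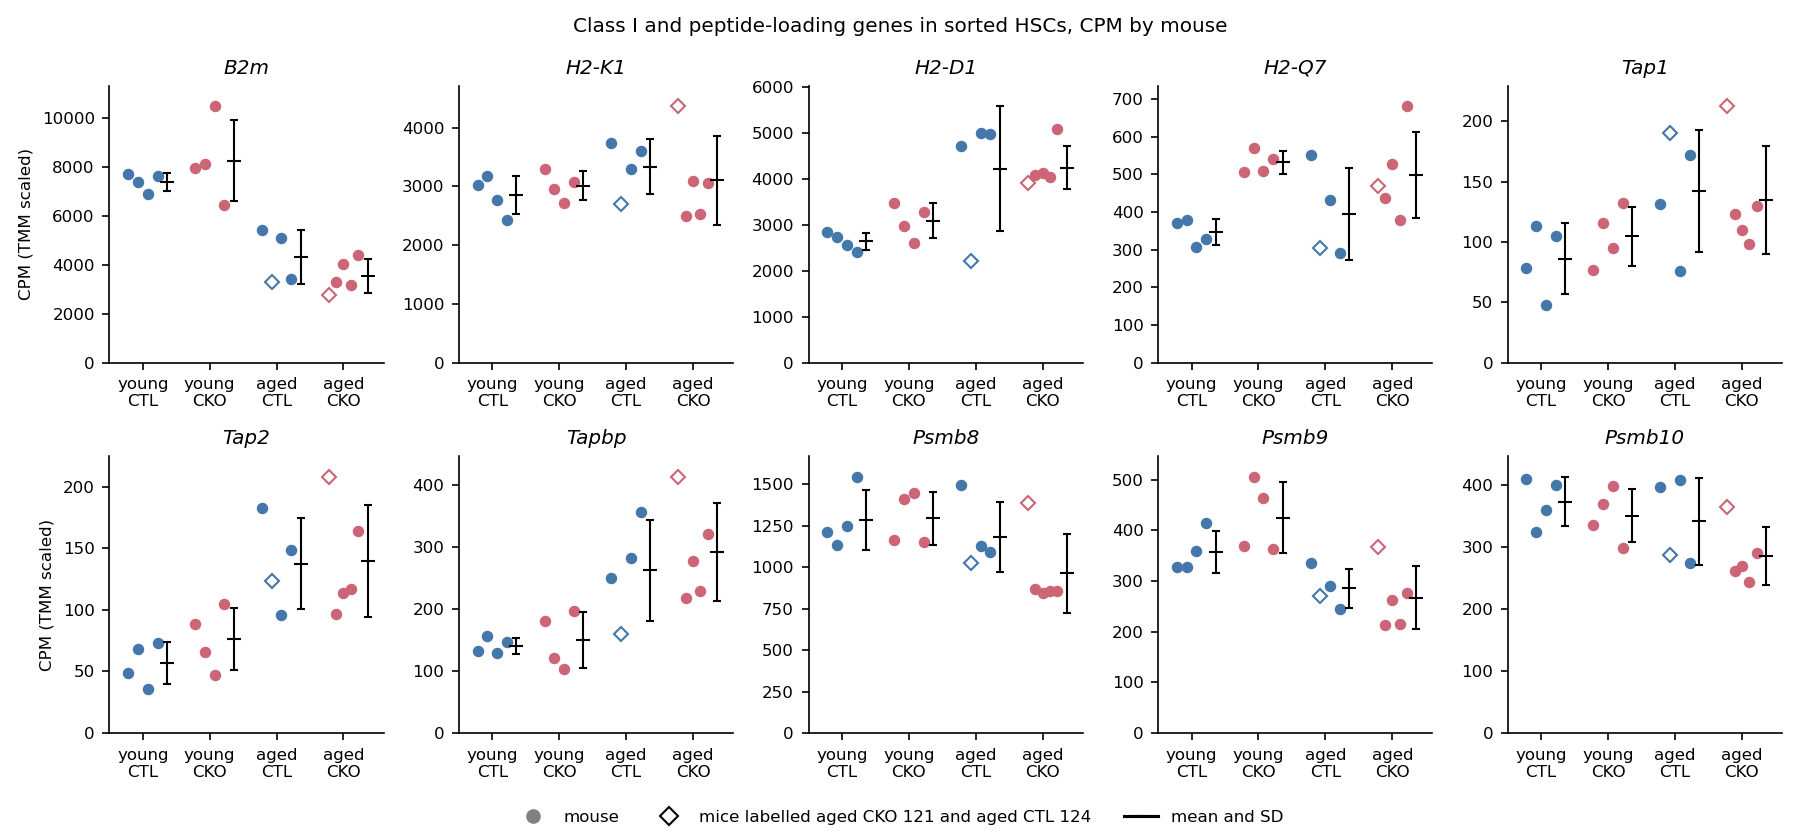
CPM (linear axis from 0) of the 10 genes in each mouse, by group. Points are mice, diamonds are the mice labelled aged CKO 121 and aged CTL 124, and bars give mean and SD. H2-Q7 of the 4 young CKO mice sits between 507 and 570.0 CPM, above all young CTL mice, and B2m of aged CTL mice lies below all young CTL mice.

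The effect of Ythdf2 loss in young HSCs was compared first. No member passed the edgeR quasi-likelihood test at an adjusted p of 0.05, which called 20 of 11526 genes (0.174%). At an unadjusted p below 0.05, 1 of the 10 genes passed, H2-Q7, beside 7.06% of all genes. The log2 fold change of CKO over CTL was above 0 for 9 of the 10, with a median of 0.20, while 49.9% of all genes lay above 0 with a median of -0.00.

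H2-Q7 encodes a Qa-2 heavy chain, which is found in lymphoid and other hematopoietic cells. Its level was 370.5, 379.7, 306.9 and 327.7 CPM in young CTL mice 1 to 4, and 507, 569.98, 509.9 and 540.1 CPM in young CKO mice 1 to 4. Every CKO mouse was above every CTL mouse, a pattern that 2.68% of genes showed in this direction. The log2 fold change was 0.62 ± 0.13 (SE), ranked 23 of 11526 genes by p, with an adjusted p of 0.0839 in edgeR. DESeq2 (adjusted p = 7.82e-04) and the likelihood ratio test over mice (0.00779) called it. So did that over libraries (5.01e-04), which treats 16 libraries of 8 mice as if each were a mouse, so its p is too small. The edgeR fit of all 17 mice, which called 1 gene in all and not Ythdf2 itself, gave an adjusted p of 0.804. Its near copy H2-Q6 had 98.9, 103, 85.2 and 79.3 CPM in CTL and 149, 118, 73.6 and 140.4 CPM in CKO mice 1 to 4, which overlapped. With both rows summed, an alternative added after seeing the data, the log2 fold change was 0.58 ± 0.13 (edgeR adjusted p = 0.105).

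The classical heavy chains did not separate. H2-D1 had 2846, 2728, 2564 and 2411 CPM in young CTL and 3476, 2978, 2597 and 3283 CPM in young CKO mice. Of the CKO mice 3 were above all CTL mice, and the groups overlapped through CKO mouse 3, with a log2 fold change of 0.23 ± 0.12 (edgeR adjusted p = 0.741). H2-K1 had 3017, 3170.3, 2776 and 2429 CPM in CTL and 3301, 2963, 2715 and 3077 CPM in CKO mice, with a log2 fold change of 0.08 ± 0.12 (edgeR adjusted p = 0.948). Of their joint counts, H2-K1 took 50.2 to 53.8% in CTL and 48.4 to 51.1% in CKO mice. The 15 class I heavy chain rows summed to 6048 to 7402 CPM in CTL and 7077 to 8472 CPM in CKO mice, and these ranges overlapped.

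B2m, the light chain of class I molecules, had 7681, 7359, 6869 and 7617 CPM in CTL and 7961, 8089, 10458 and 6440.4 CPM in CKO mice. The CKO mice included both the highest and the lowest value, and the log2 fold change was 0.16 ± 0.13 (edgeR adjusted p = 0.894). Among the loading genes, Tap1, the ATP-binding partner of Tap2, spanned 48.0 to 113 CPM in CTL and 76.5 to 132 in CKO mice. Tap2 spanned 36.1 to 72.9 and 47.4 to 105 CPM, and Tapbp 129 to 157 and 103 to 196 CPM. Their log2 fold changes were 0.29 ± 0.25, 0.44 ± 0.27 and 0.09 ± 0.20 (edgeR adjusted p from 0.831 to 0.973). The groups overlapped for each.

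The catalytic subunits of the immunoproteasome each replace a constitutive subunit, Psmb8 that of Psmb5, Psmb9 that of Psmb6 and Psmb10 that of Psmb7. Psmb9 had 327, 327, 359 and 415 CPM in young CTL and 369, 506, 463 and 363 CPM in young CKO mice, with a log2 fold change of 0.26 ± 0.14 (edgeR adjusted p = 0.788). Psmb8 spanned 1132 to 1544 CPM in CTL and 1153 to 1449 CPM in CKO mice, and Psmb10 324 to 410.5 and 299 to 399 CPM, with log2 fold changes of 0.02 ± 0.13 and -0.09 ± 0.14. The log2 fold changes of Psmb5, Psmb6 and Psmb7 were -0.24 ± 0.15, -0.09 ± 0.16 and -0.10 ± 0.14, and none passed the test in edgeR.

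A ratio of counts within a mouse does not depend on scaling to depth. Psmb9 to Psmb6 was 0.445, 0.502, 0.493 and 0.464 in young CTL mice and 0.6495, 0.626, 0.536 and 0.621 in young CKO mice. All CKO mice were above all CTL mice, with a mean log2 difference of 0.35. The two-sided exact permutation test over mice gave p = 0.0286, the smallest that 4 against 4 mice allow, and 0.171 after Benjamini-Hochberg adjustment over 6 ratios. Psmb8 to Psmb5 was 5.13 ± 0.34 in CTL and 6.20 ± 0.81 in CKO mice (SD, n = 4 each, exact permutation p = 0.0857), and Psmb10 to Psmb7 was 1.79 ± 0.13 and 1.79 ± 0.09 (exact permutation p = 1). Of 75-base windows in the Psmb5 transcript, 40.0% also occur in other genes, mainly the pseudogene Gm3375, so its ratio is less certain. With library ratios averaged per mouse, the Psmb9 to Psmb6 difference was 0.27 (exact permutation p = 0.0857), and without any 1 CTL mouse p was 0.0571, the smallest that 3 against 4 mice allow two-sided being 0.0286.

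**Figure D2:**
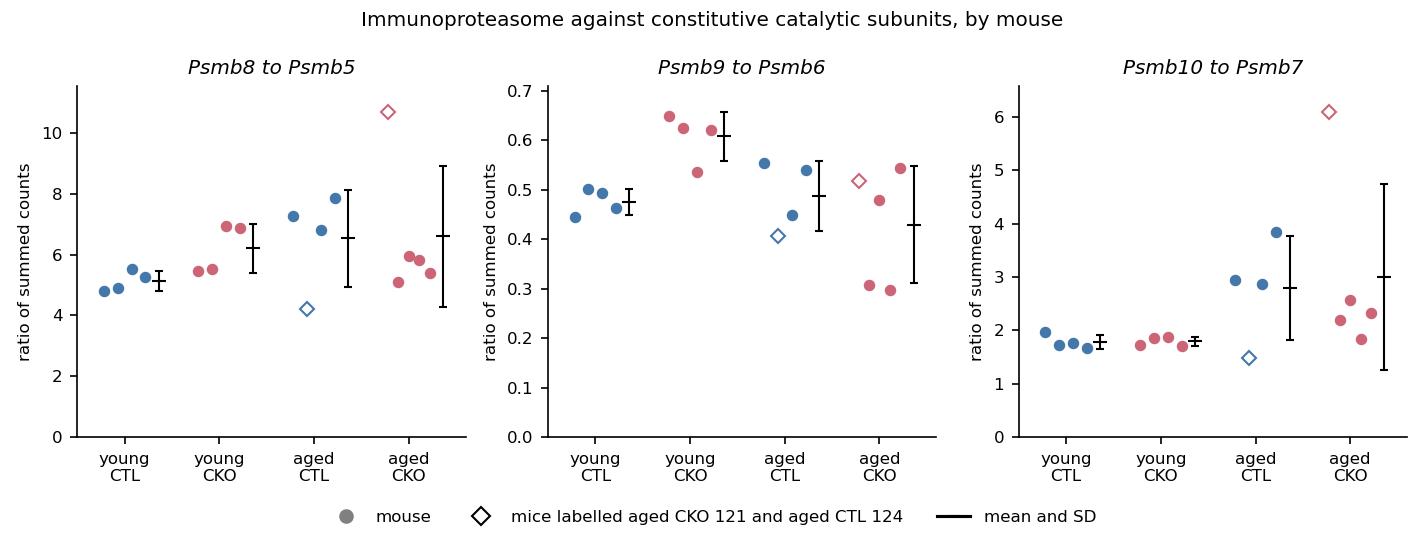
Ratio of summed counts (linear axis from 0) of each immunoproteasome subunit to its constitutive counterpart, by mouse and group. Diamonds are the mice labelled aged CKO 121 and aged CTL 124, and bars give mean and SD. Psmb9 to Psmb6 runs from 0.536 to 0.6495 in young CKO mice, above the young CTL mice, and mouse 121 reaches 10.7 for Psmb8 to Psmb5 and 6.09 for Psmb10 to Psmb7.

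Marker sums of other cells were set side by side for the young groups, with no test. The 8 dendritic cell and macrophage markers summed to 372 to 627 CPM in CTL and 606 to 1494 CPM in CKO mice, which overlapped, with Cd74 at 96.5 to 276 and 222 to 858 CPM, H2-Eb1, which did not overlap, at 24.8 to 44.1 and 47.2 to 120.3 CPM, Itgax at 0 in all and Adgre1 at most 5.06 CPM. Megakaryocyte and platelet markers summed to 499 to 862 CPM in CTL and 969 to 3090 CPM in CKO mice, most of it Pf4, at 297 to 637 and 745 to 2764 CPM. Ppbp was also higher in every CKO mouse, at 4.499 to 9.12 and 12.1 to 28.8 CPM, while Itga2b and Gp1bb overlapped, and Gp9 was at 75.9 to 97.6 CPM in CTL and 43.7 to 76.1 CPM in CKO mice. Of 3 B cell markers in the table, Cd79b had 78.6 to 88.8 CPM in CTL and 89.8 to 152 CPM in CKO mice, and Cd79a and Ms4a1 were at 0 in all young mice. Of 6 T cell markers only Cd4 is in the table, at 3.11 CPM or less in young mice. The sums of NK cell (402 to 533 and 352 to 475 CPM), myeloid (758 to 839.7 and 743 to 904 CPM) and erythroid markers (26.6 to 59.7 and 45.3 to 91.0 CPM) overlapped. In bulk samples, other cells and more RNA per cell cannot be told apart, and the part of these markers in the H2-Q7 and Psmb9 results was not tested. Under a fit with Y-linked expression as a covariate, the H2-Q7 log2 fold change was 0.63 (edgeR adjusted p = 0.174).

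Aged mice were compared in the same way. Ythdf2 itself had a log2 fold change of -0.48 ± 0.33 (SE, edgeR adjusted p = 0.661) with all mice. Its value without those labelled CKO 121 and CTL 124, -1.06, is a description only, because these mice were picked by their Ythdf2 levels. With all 9 mice, edgeR called no gene of 11961 (0%), and 1208 genes had an unadjusted p below 0.05 (4.45% higher and 5.65% lower), none of them among the 10. DESeq2 and the likelihood ratio tests called none of the 10 either. The log2 fold change was above 0 for 4 and below 0 for 6 of the 10, with a median of -0.08 beside -0.00 for all genes, of which 49.7% lay above 0. H2-Q7 had 550.1, 305, 431 and 290.4 CPM in aged CTL mice 114, 124, 65 and 99, and 469, 437, 527, 379 and 680.1 CPM in aged CKO mice 121, 122, 78, 81 and 94. Its groups overlapped, with a log2 fold change of 0.35 ± 0.22 (edgeR adjusted p = 0.636).

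Without the mice labelled CKO 121 and CTL 124, more of the genes lay below 0. Of the 10 genes, 9 then did, with a median log2 fold change of -0.24, while 49.2% of all genes lay above 0. The test called 40 of 12005 genes (0.333%) and no member in edgeR, and 3 members had an unadjusted p below 0.05, beside 11.6% of genes. Groups did not overlap for H2-K1 and Psmb8, both lower in CKO mice, a pattern of 5.41% of genes.

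Psmb8 had 1494, 1127 and 1091 CPM in the CTL mice 114, 65 and 99, and 869, 842, 856 and 859 CPM in the CKO mice 122, 78, 81 and 94. The 4 CKO mice lay close together and below every CTL mouse, with a log2 fold change of -0.53 ± 0.15 (edgeR adjusted p = 0.176). The mouse labelled CKO 121 had 1387 CPM and the mouse labelled CTL 124 had 1026 CPM. With them the log2 fold change was -0.29 ± 0.19 (edgeR adjusted p = 0.633).

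H2-K1 had 3742, 3298 and 3605 CPM in these CTL mice and 2497, 3087, 2529 and 3052 CPM in these CKO mice, with a log2 fold change of -0.35 ± 0.14 (edgeR adjusted p = 0.359). Mouse 121 had 4360 CPM, above every other mouse of the series, and mouse 124 had 2705 CPM. Psmb10 spanned 275 to 408 CPM in the CTL and 245 to 291 CPM in the CKO mice, a log2 fold change of -0.44 ± 0.17 (edgeR adjusted p = 0.343). H2-D1 (-0.18 ± 0.14), Tap1 (-0.13 ± 0.25), Tap2 (-0.21 ± 0.24), Tapbp (-0.18 ± 0.19), Psmb9 (-0.27 ± 0.17) and B2m (-0.32 ± 0.18) had smaller differences, and their groups overlapped. With all mice the values were -0.10 for H2-K1, -0.25 for Psmb10, 0.01 for H2-D1, -0.07 for Tap1, 0.03 for Tap2, 0.16 for Tapbp, -0.09 for Psmb9 and -0.28 for B2m (edgeR adjusted p of at least 0.668). H2-Q7 alone kept a log2 fold change above 0, at 0.25 ± 0.24. Megakaryocyte and platelet markers summed to 337 to 522 CPM in all aged CTL and 531 to 1959 CPM in all aged CKO mice. Of them Pf4 alone did not overlap, at 179 to 286 and 294 to 1382 CPM. Mpo of the myeloid list (8.26 to 80.8 CPM in aged CTL and 0 to 6.23 CPM in aged CKO mice) and C1qa of the macrophage list (2.94 to 5.77 and 0 to 0.974 CPM) did not overlap either. Nor did Cdkn1c of the HSC list (54.5 to 108 CPM in aged CTL and 19.1 to 48.3 CPM in aged CKO mice). The part of these markers in these results was not tested.

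**Figure D3:**
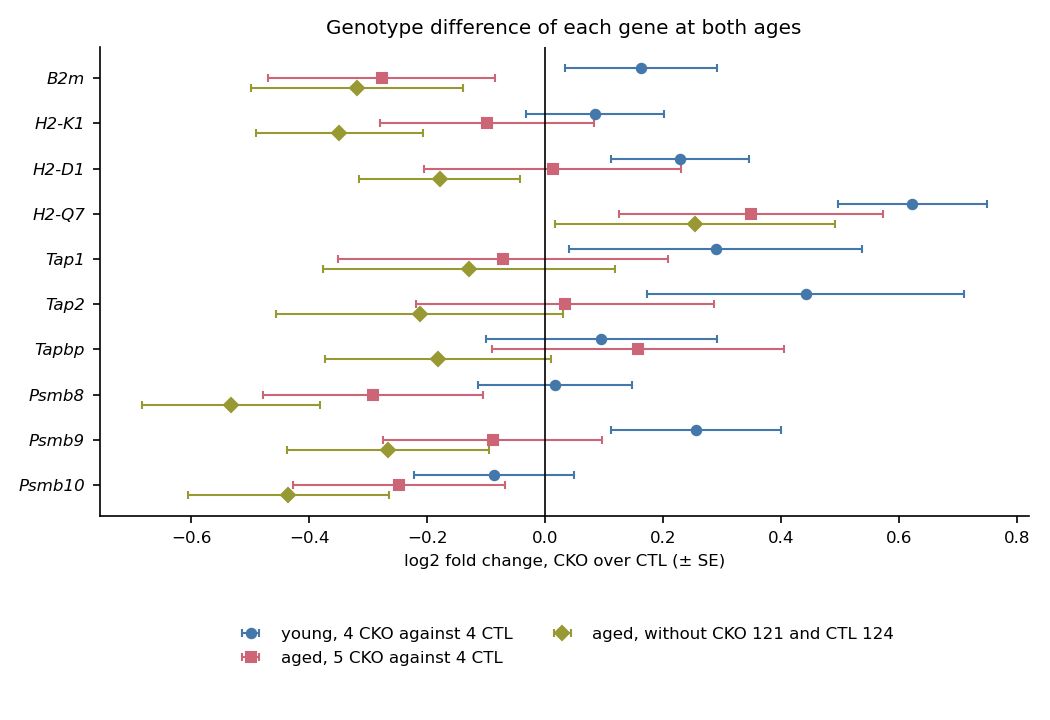
Log2 fold change of CKO over CTL for each gene in young mice, in aged mice and in aged mice without those labelled CKO 121 and CTL 124, with bars of 1 SE. H2-Q7 lies at 0.62 in young mice, and Psmb8 moves from -0.29 to -0.53 in aged mice when the 2 mice are left out.

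The proteasome ratios of aged mice depended on the same mice. With all mice, Psmb8 to Psmb5 was 6.53 ± 1.60 in CTL (SD, n = 4) and 6.59 ± 2.31 in CKO mice (n = 5, exact permutation p = 0.992). Psmb10 to Psmb7 was 2.79 ± 0.97 and 3.00 ± 1.75 (exact permutation p = 0.944), and Psmb9 to Psmb6 was 0.488 ± 0.072 and 0.4296 ± 0.118 (exact permutation p = 0.389). Without the mice labelled 121 and 124, Psmb8 to Psmb5 was 7.25, 6.81 and 7.85 in CTL and 5.11, 5.97, 5.81 and 5.40 in CKO mice, and Psmb10 to Psmb7 was 2.94, 2.87 and 3.85 in CTL and 2.20, 2.56, 1.83 and 2.32 in CKO mice. For both of these ratios every CKO mouse was then below every CTL mouse, with log2 differences of -0.39 and -0.53. The exact permutation p was 0.0286 for each, the smallest for 3 against 4 mice, and 0.0571 after adjustment over 6 ratios. Psmb9 to Psmb6 overlapped between these groups, with a log2 difference of -0.38 (exact permutation p = 0.314). Mouse 121 had the highest values of Psmb8 to Psmb5 and Psmb10 to Psmb7 of the aged mice, 10.7 and 6.09, and mouse 124 the lowest, 4.21 and 1.49.

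Whether the genotype effect differed between ages was tested as an interaction over 17 mice. The edgeR fit called no gene of 12352 (0%), and 588 (4.76%) had an unadjusted p below 0.05, none of the 10 among them. The interaction was below 0 for 9 of the 10, with a median of -0.30 beside -0.02 for all genes, of which 48.1% lay above 0. Without the mice labelled 121 and 124, 15 of 12409 genes were called (0.121%), none among the 10. All 10 were then below 0 with a median of -0.42, while 49.1% of genes lay above 0, and 5 had an unadjusted p below 0.05, beside 6.71% of genes. The smallest was that of Psmb8, -0.54 ± 0.20, with an edgeR adjusted p of 0.583, followed by H2-K1 (-0.43 ± 0.17), H2-D1 (-0.40 ± 0.17), Psmb9 (-0.52 ± 0.23) and B2m (-0.48 ± 0.23). None passed the adjusted test, so a difference of the genotype effect between ages was not shown.

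Control mice of both ages were also compared. This comparison shares its mice with those above, and age cannot be told apart from a batch of libraries in it. The edgeR test over 17 mice called 1825 of 12352 genes (14.8%) and 4 of the 10. H2-D1, Tap2 and Tapbp rose (6.7% of genes) and B2m fell (8.07%). The same 4 were called without the mice labelled 121 and 124 (17.6% of genes), and by DESeq2 and the likelihood ratio test over mice. The median log2 fold change of all genes was 0.11, and changes are read against it.

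B2m fell in aged controls. It had 7681, 7359, 6869 and 7617 CPM in young CTL mice, as above, and 5433, 3306, 5083 and 3425 CPM in aged CTL mice 114, 124, 65 and 99, all below every young CTL mouse. Groups failed to overlap in this direction for 10% of genes. The log2 fold change was -0.78 ± 0.18 (edgeR adjusted p = 0.00715), and -0.67 ± 0.17 without the mice labelled 121 and 124.

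The heavy chain H2-D1 moved the other way. It had 2411 to 2846 CPM in young CTL mice and 4709, 2199, 4986 and 4981 CPM in aged CTL mice. Mouse 124 lay below all young CTL mice and the other 3 above them, with a log2 fold change of 0.68 ± 0.19 (edgeR adjusted p = 0.0204) and 0.89 ± 0.12 without mice 121 and 124 (edgeR adjusted p = 1.75e-04), where the groups did not overlap (12.2% of genes). H2-K1 was at 0.23 ± 0.16 (edgeR adjusted p = 0.358) and H2-Q7 at 0.19 ± 0.19 (0.5499). H2-K1 took 44.3, 39.8 and 42.0% of the joint counts of H2-K1 and H2-D1 in aged CTL mice 114, 65 and 99, below the young CTL range of 50.2 to 53.8%, while mouse 124 had 55.2%. Among aged CKO mice the share was 37.6 to 42.9%, except for mouse 121 with 52.8%.

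**Figure D4:**
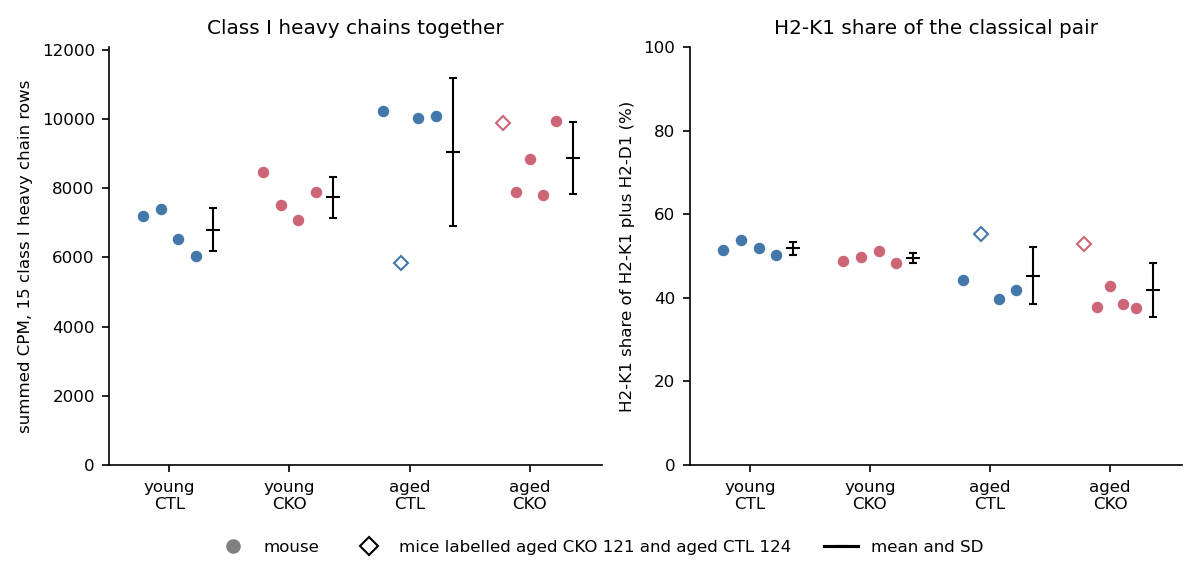
Summed CPM of the 15 class I heavy chain rows and the H2-K1 share of H2-K1 plus H2-D1 (in %), by mouse, on linear axes from 0. Points are mice, diamonds the mice labelled aged CKO 121 and aged CTL 124, and bars mean and SD. The share lies between 37.6 and 44.3% in aged mice other than these 2, below the young mice.

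Tap2 and Tapbp rose in aged controls, while Tap1 did not pass the test. Tap2 had 49.0, 68.5, 36.1 and 72.9 CPM in young CTL and 183, 123, 95.7 and 149 CPM in aged CTL mice, and Tapbp 132, 157, 129 and 146 CPM in young and 250.02, 161, 283 and 357 CPM in aged CTL mice. For both genes the groups did not overlap, as for 7.11% of genes in this direction. The log2 fold changes were 1.28 ± 0.29 and 0.89 ± 0.24 (edgeR adjusted p = 0.00584 and 0.0184), and 1.33 ± 0.28 and 1.07 ± 0.21 without mice 121 and 124. Of 14 other loading factors and chaperones, 6 lay above and 8 below 0, beside 55.8% of all genes above 0. Of the 14, 4 were called, beside 14.8% of all genes. Tap1 was at 0.72 ± 0.30 (edgeR adjusted p = 0.102) and called only without aged CTL mouse 65 (0.0307). The immunoproteasome genes had values of -0.11 ± 0.17 for Psmb8, -0.32 ± 0.18 for Psmb9 and -0.13 ± 0.17 for Psmb10, and none was called in edgeR. The call of Tapbp was lost without aged CTL mouse 99 or young CTL mouse 1 or 3, and that of H2-D1 without aged CTL mouse 99 or 114 or young CTL mouse 3 or 4, with adjusted p up to 0.0684 and 0.0671. Dendritic cell and macrophage markers summed to 357 to 2032 CPM in aged CTL and 372 to 627 CPM in young CTL mice. Of the NK cell markers, Nkg7 was at 392 to 530.1 CPM in young and 144 to 318 CPM in aged CTL mice, which did not overlap, while Klrb1c was at 2.76 to 10.8 and 0 to 18.5 CPM. Of the B cell markers, Cd79b was at 78.6 to 88.8 and 32.5 to 75.2 CPM, and Cd79a and Ms4a1 were at most 1.24 CPM. Sums of myeloid, erythroid and megakaryocyte markers overlapped between these ages, as did Cd4, but the main gene of a sum did not for Lyz2 (732 to 816 CPM in young and 377 to 693 CPM in aged CTL mice) and Pf4 (297 to 637 and 179 to 286 CPM). Hba-a2 was at most 1.084 CPM in young and at 0 in aged CTL mice. Cdkn1c of the HSC list was at 24.3 to 34.5 CPM in young and 54.5 to 108 CPM in aged CTL mice, which did not overlap. The part of these markers in the B2m, H2-D1, Tap2 and Tapbp results was not tested.

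**Figure D5:**
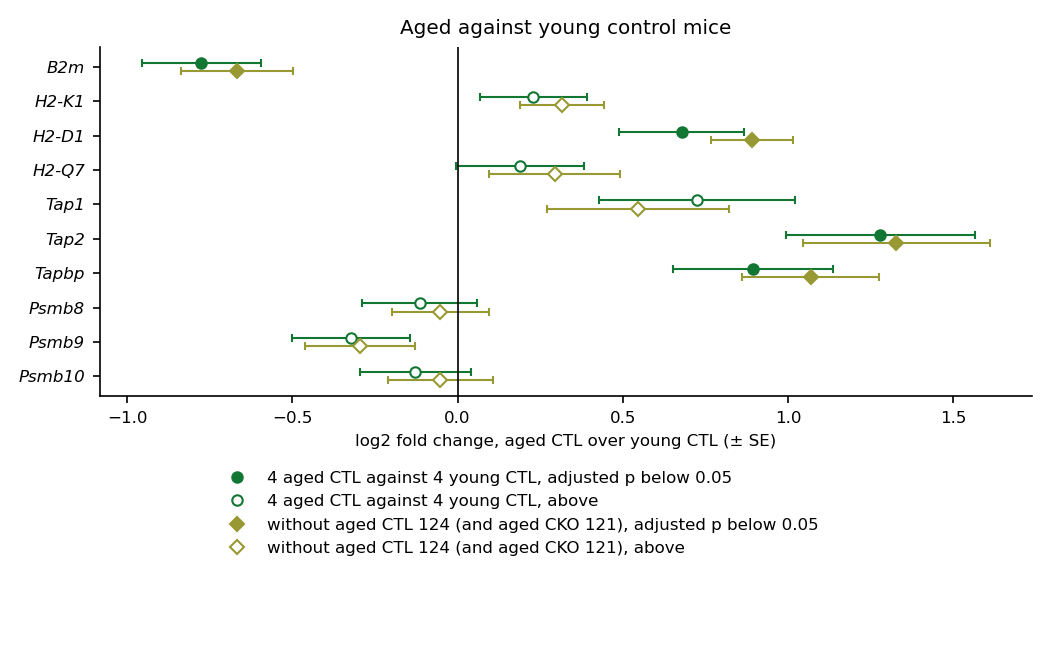
Log2 fold change of aged CTL over young CTL mice for each gene with bars of 1 SE, with all mice (circles) and without those labelled aged CTL 124 and aged CKO 121 (diamonds). Filled symbols mark an adjusted p below 0.05. B2m lies at -0.78, while H2-D1, Tapbp and Tap2 lie at 0.68, 0.89 and 1.28.

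Other genes of the pathway were followed as lists. Of 18 other class I and class I-like genes in the table, 15 were tested in young mice and none was called in edgeR (3 at an unadjusted p below 0.05, beside 7.06% of all genes), with 10 above and 5 below 0 and a median log2 fold change of 0.15. The 2 smallest p values were those of H2-T22, a nonclassical heavy chain, and Cd1d1, a class I-like chain that presents lipids. H2-T22 had 74.97, 90.8, 84.0 and 61.8 CPM in CTL and 115, 112, 130 and 104 CPM in CKO mice, which did not overlap (2.68% of genes in this direction), with a log2 fold change of 0.56 (edgeR adjusted p = 0.372). Cd1d1 had 153, 164, 169 and 147 CPM in CTL and 105, 89.9, 153 and 109 CPM in CKO mice, with a log2 fold change of -0.47 (edgeR adjusted p = 0.528).

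In aged mice Cd1d1 was the list's only called gene, and only without the mice labelled 121 and 124, where 0.333% of all genes were called. It had 128, 135 and 139 CPM in CTL and 44.4, 53.8, 77.4 and 51.0 CPM in CKO mice, a log2 fold change of -1.24 (edgeR adjusted p = 0.0274). Mouse 121 had 135 CPM and mouse 124 had 39.2 CPM, and with them the value was -0.60 (edgeR adjusted p = 0.632).

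Of 14 other loading factors and chaperones, 15 proteasome activators, assembly factors and peptidases, and 19 transactivators and interferon regulators, none was called in young or aged mice in edgeR. At an unadjusted p below 0.05 there were 0 of them in young mice, beside 7.06% of all genes. In aged mice there were 1, 3 and 5, beside 4.45% of genes higher and 5.65% lower. By log2 fold change, Bcap31 (-0.39) of the loading list was lower in aged CKO mice. So were Psme4 (-0.64), Npepps (-0.70) and Lnpep (-0.79) of the proteasome list. Among the regulators, Irf8 (-1.98), Ifngr2 (-0.84) and Creb1 (-0.60) were lower, while Rela (0.55) and Nfyc (0.51) were higher. Without mice 121 and 124 there were 0, 3 and 3, beside 11.6% of genes. The median log2 fold changes of these lists in young mice were, in the same order, -0.04, -0.00 and -0.01. The smallest p values in young mice were those of Sec61b (-0.27) and Canx (-0.19) for loading, Npepps (-0.55) and Psme4 (-0.33) for the proteasome list, and Ifnar1 (0.43) and Rela (0.37) for the regulators, with edgeR adjusted p of at least 0.717. Nlrc5, the class I transactivator, was at 31.5 ± 12.2 CPM in young CTL and 29.0 ± 10.8 CPM in young CKO mice (SD, n = 4), and Irf1, an interferon-regulated factor, at 141 ± 15 and 162 ± 36 CPM. Neither differed beyond the spread of the mice, with log2 fold changes of -0.11 ± 0.33 and 0.21 ± 0.17. In aged mice Rela, an NF-kB subunit, had 129, 109.7, 107 and 118 CPM in CTL and 176, 178, 162, 159 and 167 CPM in CKO mice, which did not overlap (1.78% of genes), with a log2 fold change of 0.55 (edgeR adjusted p = 0.312, DESeq2 0.0413), and of 0.50 without mice 121 and 124 (edgeR adjusted p = 0.243).

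Likeness between genes was described over the 17 mice after subtraction of group means, as Pearson's r of log2 CPM. These values share libraries and depth and are given with no test. Psmb8, Psmb9 and Psmb10 varied together, with r of 0.87 for Psmb8 and Psmb9, 0.79 for Psmb9 and Psmb10 and 0.77 for Psmb8 and Psmb10, and r of 0.78, 0.72 and 0.61 over 15 mice without those labelled 121 and 124. For H2-K1 and H2-D1 r was 0.45 over 17 and 0.69 over 15 mice. Outside the lists, the genes most like B2m were 1110059E24Rik (r = 0.94) and Mrpl32 (0.92), and those most like H2-Q7 were A530072M11Rik (0.89), at a mean of only 0.757 CPM, and Cast (0.81). The A and B libraries of a mouse, 16 pairs, differed by a median of 0.10 in log2 CPM for Psmb9, 0.23 for H2-Q7 and 0.68 for Tap2, so the transporter genes were measured least precisely.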

How the data were processed

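The authors prepared SMART-Seq2 libraries from polyadenylated RNA, aligned reads with HISAT2 (build mm10 per the labels) and counted them per gene with Rsubread. The deposited values are raw counts for 13108 gene rows in 34 libraries, of which 33 from 17 mice were used. The gene annotation, the use of strand and the handling of reads that fit several genes are not given in the sources used here. Names of 20 rows had been turned into dates.

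Mice were the replicates, so the libraries of a mouse were added up. edgeR 4.0.16 (R 4.3.3) filtered low genes (filterByExpr, at least 10 counts and 15 in total), applied TMM and tested by quasi-likelihood, with Benjamini-Hochberg adjusted p-values over all genes tested and a threshold of 0.05. The SE was derived from the F statistic. CPM used TMM over 17 mice, and log2 CPM a prior count of 2. Ratios were compared by two-sided exact permutation tests over mice. Scripts were tested on simulated data. Alternatives were DESeq2 1.42.0, its size factors, likelihood ratio tests, no filter or a minimum of 30 counts, a Y-linked covariate, all mice in 1 fit, the replicate number as a block, and leaving out mice. Library totals ran from 1859784 to 7784627 counts, and the fewest counts of a member in a library were 62, for Tap2.

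The members, gene lists and rules were chosen with earlier results of these data known. Named are the 10 members, Psmb5, Psmb6, Psmb7, Nlrc5 and Irf1, in each list the genes called between genotypes and the 2 with the smallest p in young mice, and genes most like a member. H2-Q6 and Gm3375 were named after their values were seen, and the adjustment of ratios without mice 121 and 124 and levels per transcript length were added then. Bcap31, Lnpep, Irf8, Ifngr2, Creb1 and Nfyc were also named after their values were seen. Sequences came from RefSeq (GRCm38.p6), and lengths and transcripts from GENCODE vM21.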

Additional observations from a re-analysis of the deposited data

Results flagged for a closer look

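Within groups of 4 or 5 mice, the gap between the extreme mouse and its neighbour was compared with the group's range by Dixon's 95% limits, for 68 sets of values, of which about 3.4 would be picked by chance. The mouse labelled aged CKO 121 stood apart from the other aged CKO mice in 5 of them. It had 212 CPM of Tap1 (next 129.6), 1387 CPM of Psmb8 (next 869), 188 CPM of Ythdf2 (next 87.7), a Psmb8 to Psmb5 ratio of 10.7 (next 5.97) and a Psmb10 to Psmb7 ratio of 6.09 (next 2.56). The mouse labelled aged CTL 124 stood below the other aged CTL mice in H2-D1, with 2199 CPM (next 4709). Aged CKO mouse 94 stood above the other aged CKO mice in H2-D1, with 5072 CPM (next 4116). In the library of aged CTL mouse 99 that was left out, every member but Tap2 was below the range of the other aged CTL libraries. B2m, for example, had 80.2 CPM there and 2004 to 5622 CPM in the others. No member was above the range, and counts of a member were at most 30.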

How the results depend on the processing

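Between genotypes, the call of no member was changed by an alternative except that of H2-Q7 in young mice, which DESeq2 and likelihood ratio tests over mice and over libraries, the latter with libraries of a mouse taken as separate, called. Of 171 alternatives for members in young mice 8 turned a direction, of 181 in aged mice 13, of 250 for the interaction 5 and of 250 for age in controls 1, and the cause was not tested. In young mice 20 genes were called, and 77 with DESeq2, 67 and 90 with likelihood ratio tests over mice and libraries, 9 with the Y-linked covariate, 1 with all mice in 1 fit, and 0 to 18 with 1 mouse left out (0 without CTL mouse 1 or 2). In aged mice 0 were called, and 104 with DESeq2, 76 and 420 with those tests, 5 with all mice in 1 fit, 40 without mice 121 and 124, and 0 to 16 with 1 mouse left out. For the interaction 0 were called, and 4 and 3 with those tests, 15 without both mice and 0 to 2 with 1 left out. For age in controls, 1825 were called, and 896 to 2048 with 1 left out. The numbers of young mice do not pair them (correlations of deviations from -0.04 to 0.05, and 2 of 4 mice most like their own number), and with the replicate block 14 genes were called and the H2-Q7 adjusted p was 0.187. The Psmb9 to Psmb6 difference in young mice was 0.351 in the replicate block (exact permutation p = 0.125, the smallest that 4 pairs allow, so this test could not pass), 0.273 with mean library ratios, and 0.319 to 0.411 with 1 mouse left out. Psmb8 in young mice was at -0.0041 with the likelihood ratio test over libraries and -0.115 with the Y-linked covariate. Without mice 121 and 124, aged mice had -0.179 for H2-D1, -0.213 for Tap2, -0.183 for Tapbp and 0.0479 for Psmb7, the interaction of Tapbp was -0.269, and the differences of Psmb8 to Psmb5 and Psmb10 to Psmb7 were -0.390 and -0.529. Mean library ratios gave 0.0072 for Psmb8 to Psmb5 in aged and -0.0243 for Psmb10 to Psmb7 in young mice. With 1 mouse left out, log2 values in young mice ran from -0.0648 to 0.238 for Tapbp, -0.0420 to 0.114 for Psmb8, -0.198 to 0.0048 for Psmb6, -0.386 to 0.141 for Nlrc5 and -0.0240 to 0.0571 for Psmb10 to Psmb7. In aged mice they ran from -0.212 to 0.0927 for H2-D1, -0.298 to 0.0863 for Tap1, -0.152 to 0.193 for Tap2, -0.0313 to 0.332 for Tapbp, -0.0072 to 0.179 for Psmb6, -0.202 to 0.0969 for Psmb8 to Psmb5 and -0.255 to 0.219 for Psmb10 to Psmb7. The interaction of Tapbp ran from -0.108 to 0.241, and H2-Q7 with age from -0.0240 to 0.302. Tap1 and Tap2 rest on the fewest counts of the members.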
